A study of Homo sapiens with 6 samples.

Results

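Cadherins are calcium-dependent adhesion proteins that join neighbouring cells at adherens junctions. The type I members CDH1 (E-cadherin), CDH2 (N-cadherin), CDH3 (P-cadherin) and CDH4 (R-cadherin) and the type II members CDH5 (VE-cadherin), CDH6 (K-cadherin) and CDH11 (OB-cadherin) bind catenins with their cytoplasmic tails. β-catenin, encoded by CTNNB1, links the tail to α-catenin and actin and also acts in the nucleus as a Wnt pathway co-activator, while p120-catenin, encoded by CTNND1, binds next to the membrane and slows cadherin uptake. CDH13 (T-cadherin) is held to the membrane by a lipid anchor, has no cytoplasmic tail and binds adiponectin. CDH5 is known as the adhesion protein of endothelial junctions, where it controls vessel permeability, and CDH1 as the main cadherin of epithelia.

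The transcripts described here are those of these 8 cadherins and 2 catenins, 10 of the 61487 gene IDs in the count table. They were chosen by symbol, and the set was selected on one measured pattern, that CDH5 was abundant in Control and lower with either form of ACK1. That pattern is therefore described for CDH5 with no test against Control. The other members were tested in each comparison, and CDH5 was tested between the 2 forms of ACK1, which the choice did not use. All except CDH1 passed the filter on low counts, so 9 of the 10 had a fitted fold change.

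The cells were H2170, an established line of human lung squamous cell carcinoma, and every group expressed a GFP construct in that line. WT libraries came from cells overexpressing ACK1 (WT)-GFP, IDRmut libraries from cells overexpressing ACK1 (IDRmut)-GFP, and Control libraries from cells expressing GFP, with 2 libraries per group. TNK2 is the gene of ACK1, a tyrosine kinase of the cytoplasm. IDRmut is not spelled out in the labels, and the series title places the comparison in a study of ACK1 condensates and STAT5 activation. The labels do not say that replicates were separate cultures or clones, and p-values therefore measure the spread between these libraries alone, which may be technical.

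Library totals ranged from 19128111 to 33540998 counts, the deepest being WT replicate 2. TNK2 stood at 3510 and 3608 CPM (counts scaled to TMM-adjusted library size) in WT, 1759 and 1453 CPM in IDRmut, and 41.1 and 43.1 CPM in Control, so WT and IDRmut also differed 2.22-fold in TNK2 RNA, and the mutation and the dose cannot be told apart in that comparison. The squamous label was matched by part of its markers. TP63, the master factor of squamous epithelium, averaged 27.0 CPM in WT, 32.5 CPM in IDRmut and 23.5 CPM in Control, and KRT14, a basal keratin, 621 CPM in WT, 939 CPM in IDRmut and 1422 CPM in Control. The squamous desmosomal genes DSC3 and PERP had at most 3 counts in each library. Of 10 epithelial markers, CDH1 and ST14 had at most 3 counts in each of the 6 libraries and EPCAM at most 4, while CLDN4, a tight junction gene, averaged 153 CPM in WT, 96.2 CPM in IDRmut and 130 CPM in Control, and KRT8, a simple keratin, had 28.7 and 27.5 CPM in WT, 75.9 and 68.8 CPM in IDRmut and 12.7 and 11.3 CPM in Control. Among 12 fibroblast and mural markers the collagen gene COL1A2 averaged 669 CPM in WT, 878 CPM in IDRmut and 828 CPM in Control and PDGFRA 29.5 CPM in WT, 57.6 CPM in IDRmut and 57.7 CPM in Control, whereas COL1A1, COL3A1, DCN, LUM, POSTN and PDGFRB averaged at most 1.70 CPM in any group.

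CDH5 was lowest in WT, intermediate in IDRmut and highest in Control. It had 39.2 and 39.6 CPM in WT, 93.8 and 90.3 CPM in IDRmut, and 210 and 215 CPM in Control. The 3 groups did not overlap, and replicates within a group differed little beside the gaps between groups. Against Control, CDH5 was 5.39-fold lower in WT (log2 fold change −2.43 ± 0.04, SE) and 2.31-fold lower in IDRmut (−1.21 ± 0.04), values that belong to the pattern the genes were chosen on. Between the 2 forms of ACK1, CDH5 was lower in WT than in IDRmut, with a ratio of 0.428 (log2 fold change −1.22 ± 0.05, 95% interval −1.32 to −1.12, adjusted p = 9.8e-12, edgeR's quasi-likelihood test). That difference stayed between −1.25 and −1.20 and past the threshold in 14 alternative settings. CDH5 lies on chromosome 16 at 66366622 to 66404786 (GRCh38, plus strand, ENSG00000179776), and none of its 6082 exon bases is shared with another gene of GENCODE release 29.

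**Figure D1:**
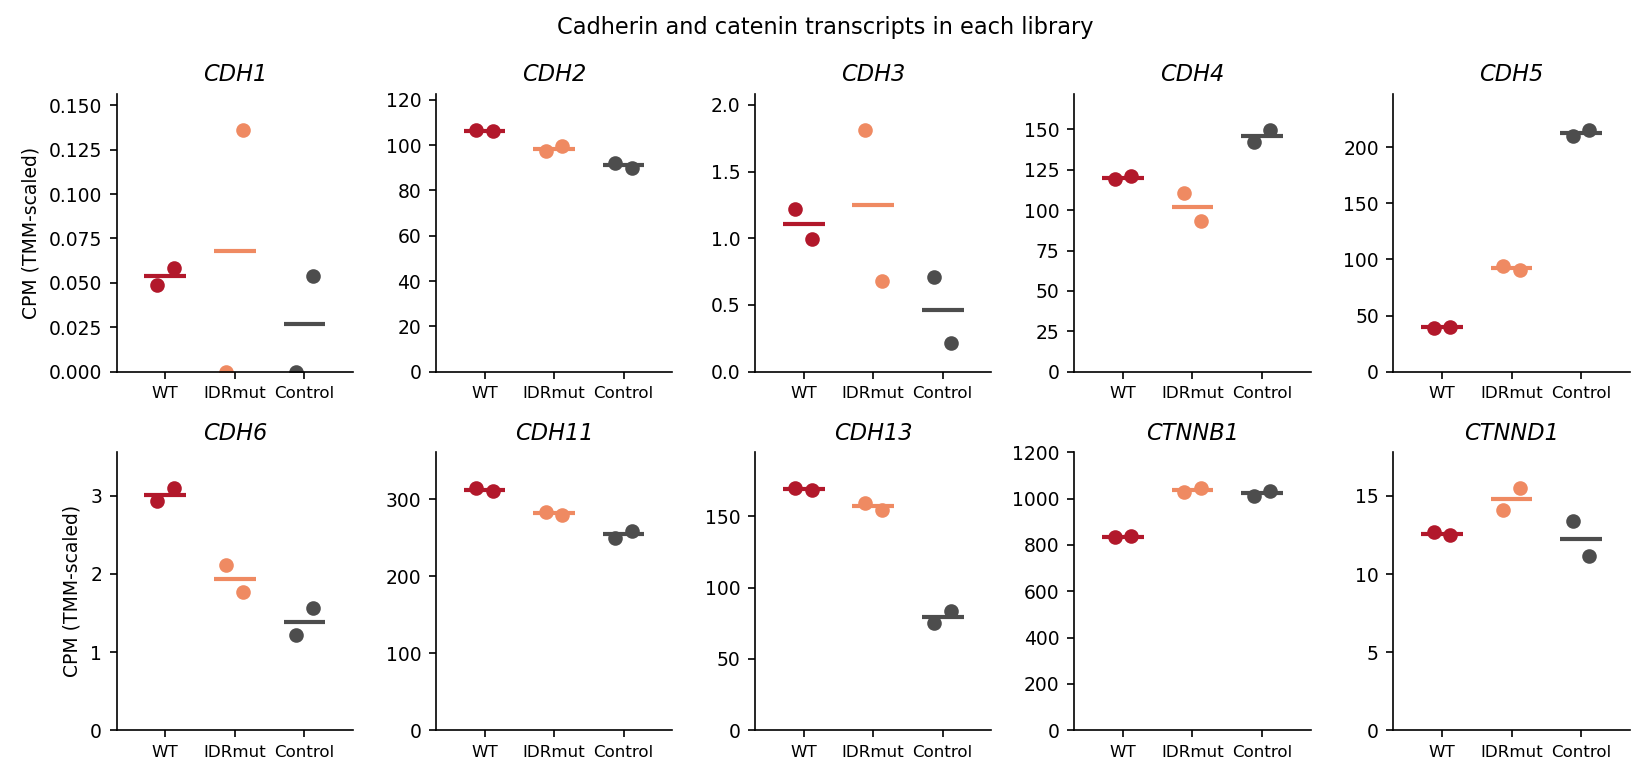
Level of each member in CPM (TMM-scaled, linear axes that differ between genes) in the 2 WT, 2 IDRmut and 2 Control libraries, with points for libraries and lines for group means. CDH5 is lowest in WT, between in IDRmut and highest in Control, CDH13 sits higher in both ACK1 groups, and CDH1 and CDH3 lie near the detection limit.

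In bulk RNA, fewer cells carrying a transcript and less of it per cell cannot be told apart. Markers of other cell types were summed per library beside CDH5. Among 18 endothelial markers, 7 had at most 3 counts in every library (TIE1, EMCN, ERG, MMRN1, PLVAP, ECSCR and TAL1), and PECAM1, the endothelial junction protein also called CD31, had at most 7. Their summed level was 22.7 to 25.9 CPM in WT, 21.5 to 21.6 CPM in IDRmut and 18.2 to 18.7 CPM in Control, together below the level of CDH5 alone in every library. Of the 8 tested, 3 rose and none fell in WT against Control, and 4 rose and 2 fell in IDRmut against Control. The 3 of 8 called in WT were near the share of all genes called in that comparison (35.0%). The 6 of 8 called in IDRmut were above that share (31.6% of all genes). The summed level of the 18 markers was lowest in Control, but single markers differed. TEK averaged 5.09 CPM in WT, 2.64 CPM in IDRmut and 1.07 CPM in Control. KDR averaged 6.21 CPM in WT, 4.51 CPM in IDRmut and 7.49 CPM in Control. ESAM was also highest in Control, with 1.36 CPM in WT, 1.22 CPM in IDRmut and 1.98 CPM in Control. Without WT replicate 2 the number that rose in WT was 1, and when any one library other than IDRmut replicate 2 was left out the number that fell in IDRmut was 1. Leukocyte markers summed to 1.02 to 1.57 CPM in WT, 1.14 to 1.18 CPM in IDRmut and 0.507 to 0.752 CPM in Control, with 8 of 12 at or under 3 counts in every library. Neural and melanocyte markers, with 2 of 10 at or under 3 counts (ELAVL4 and TYR), summed to 11.4 to 11.8 CPM in WT, 14.0 to 14.5 CPM in IDRmut and 8.16 to 8.51 CPM in Control.

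The squamous and basal markers, led by KRT14 and S100A2, summed to 1494 to 1535 CPM in WT, 2028 to 2180 CPM in IDRmut and 2909 to 2918 CPM in Control, the same order as CDH5. KRT14, S100A2 and SOX2 had that order, and KRT14 and S100A2 made up most of the sum. The other tested genes of the list averaged highest in IDRmut. Among them were KRT5 (8.30 CPM in WT, 28.9 CPM in IDRmut, 13.7 CPM in Control) and KRT6A (45.1, 96.8 and 28.6 CPM). Of the 9 tested squamous and basal genes, 2 rose and 6 fell in WT against Control, 3 fell and 4 rose in IDRmut against Control, and 9 fell in WT against IDRmut. Calls covered 88.9% of them in WT against Control, 77.8% in IDRmut against Control and 100% in WT against IDRmut. Over all genes the shares were 35.0%, 31.6% and 26.5%. The fibroblast and mural list summed to 712 to 723 CPM in WT, 934 to 993 CPM in IDRmut and 891 to 914 CPM in Control, most of it COL1A2, with none of its 12 genes at or under 3 counts in every library, and the epithelial list without CDH1 to 197 to 204 CPM in WT, 174 to 199 CPM in IDRmut and 149 to 156 CPM in Control. Of 10 fibroblast genes tested 2 fell and 1 rose in WT against Control and 2 rose in IDRmut, of 7 epithelial genes 4 rose and 1 fell in WT and 4 rose and 2 fell in IDRmut, and of 5 neural genes 1 rose in WT and 2 rose in IDRmut. When any one WT or Control library was left out 1 squamous gene rose in WT against Control. In that comparison 2 fibroblast genes rose when any one library of Control or IDRmut was left out, 2 epithelial genes rose without Control replicate 1, and none fell without WT replicate 2. In IDRmut against Control 1 epithelial gene fell without Control replicate 1 or IDRmut replicate 2. The part of these shifts in the values of CDH5 was not tested.

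The members other than CDH5 did not move in one direction. In WT against Control 4 of the 8 tested rose (CDH2, CDH6, CDH11 and CDH13) and 2 fell (CDH4 and CTNNB1), while 35.0% of all 16591 genes tested were called in that comparison, 17.4% as higher and 17.6% as lower. In IDRmut against Control 4 rose (CDH3, CDH11, CDH13 and CTNND1) and 1 fell (CDH4), beside a background of 31.6% called, 15.6% as higher and 15.9% as lower. In WT against IDRmut 3 rose (CDH4, CDH6 and CDH11) and 1 fell (CTNNB1), with 26.5% of all genes called, 14.2% as higher and 12.3% as lower. Without Control replicate 2 the count in IDRmut against Control was 2 higher and 1 lower. In WT against IDRmut it was 1 higher and 1 lower without WT replicate 2, 2 and 1 without WT replicate 1, and 4 and 2 without IDRmut replicate 1. The members' median log2 fold changes were 0.26, 0.21 and 0.11 in these 3 comparisons, beside medians over all genes tested that lay within 0.004 of 0. The comparisons of WT and of IDRmut with Control share the same Control libraries. Offsets for GC content and exon length, chosen after seeing the data, left 35.8% of calls higher in WT against Control and 36.4% in IDRmut against Control, against 49.8% and 49.5% without them, while upper-quartile scaling gave 58.6% in WT against Control and 58.1% in IDRmut against Control.

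**Figure D2:**
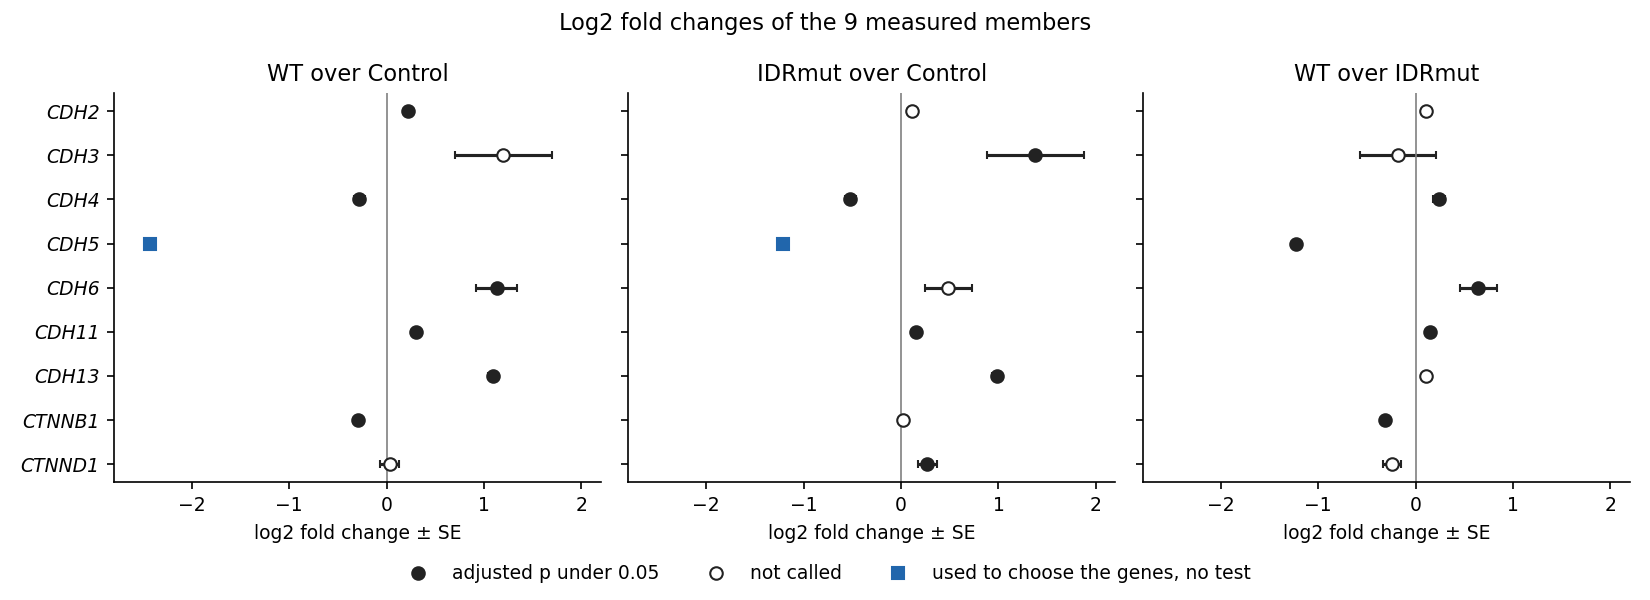
Log2 fold change ± SE of the 9 members that passed the low-count filter, in WT over Control, IDRmut over Control and WT over IDRmut (n = 2 libraries per group). Filled circles passed an adjusted p of 0.05, open circles did not, and blue squares mark CDH5 against Control, which was used to choose the genes. CDH5 is the only member past −1 in any panel, and CDH13 lies near 1 against Control in both ACK1 groups.

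CDH13, the cadherin without a cytoplasmic tail, about doubled its level with either form of ACK1. It had 170 and 169 CPM in WT, 159 and 155 CPM in IDRmut, and 75.2 and 83.6 CPM in Control. Every ACK1 library lay far above both Control libraries, and the WT and IDRmut libraries did not overlap although their gap was small. The rise was 2.13-fold in WT (log2 fold change 1.09 ± 0.05, adjusted p = 1.6e-11) and 1.98-fold in IDRmut (0.98 ± 0.05, adjusted p = 1.4e-10), and neither call was lost in the alternatives. Between WT and IDRmut the difference did not pass the threshold (0.11 ± 0.04, 95% interval 0.01 to 0.20, adjusted p = 0.085). It passed with counts thinned to the smallest library (adjusted p = 0.047), with GC content and length offsets (0.023) and without IDRmut replicate 1. CDH13 spans 82626803 to 83800640 on the plus strand of chromosome 16 (GRCh38), which also holds CDH1, CDH3, CDH5 and CDH11.

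CDH11, the mesenchymal and osteoblast cadherin, had the highest level per length of the 8 cadherins in both ACK1 groups, with small graded differences between groups. Its libraries stood at 314 and 311 CPM in WT, 284 and 280 CPM in IDRmut, and 250 and 258 CPM in Control. The groups did not overlap and had the reverse order of CDH5. The rise against Control was 0.30 ± 0.04 in WT (adjusted p = 4.6e-06) and 0.15 ± 0.04 in IDRmut (adjusted p = 0.0044), and WT exceeded IDRmut by 0.15 ± 0.04 (adjusted p = 0.0046), all as log2 fold changes. The call in IDRmut was lost without Control replicate 1 (adjusted p = 0.087), and that between WT and IDRmut without WT replicate 1 (0.063) or WT replicate 2 (0.056).

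CDH2, the cadherin of neural and mesenchymal cells, followed CDH11 with smaller steps. It had 107 and 106 CPM in WT, 97.3 and 99.6 CPM in IDRmut, and 92.3 and 89.9 CPM in Control. The groups again stood apart in that order. WT was higher than Control by 0.22 ± 0.04 on the log2 scale (adjusted p = 5.2e-04). IDRmut against Control gave 0.11 ± 0.04 (adjusted p = 0.062) and WT against IDRmut 0.11 ± 0.04 (95% interval 0.02 to 0.20, adjusted p = 0.056). The first of these passed the threshold with upper-quartile scaling (adjusted p = 0.02), with counts thinned to the smallest library (0.043) and without IDRmut replicate 1. The second passed with GC content and length offsets (0.013) and without IDRmut replicate 2.

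CDH4, the retinal cadherin, was the other member besides CDH5 that was lower with both forms of ACK1, though in another order. It had 119 and 121 CPM in WT, 110 and 93.3 CPM in IDRmut, and 142 and 150 CPM in Control. Control was highest and IDRmut lowest, with no overlap between groups and the widest gap between replicates in IDRmut. The log2 fold change against Control was −0.28 ± 0.06 in WT (adjusted p = 0.001) and −0.52 ± 0.06 in IDRmut (adjusted p = 3.3e-06). WT exceeded IDRmut by 0.24 ± 0.06 (adjusted p = 0.0055), a size that depended on the IDRmut library: it was 0.36 without IDRmut replicate 1 and 0.12 without IDRmut replicate 2, past the threshold both times.

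CDH6, a cadherin of the developing kidney, was low but rose in WT. It had 2.93 and 3.10 CPM in WT, 2.11 and 1.77 CPM in IDRmut, and 1.22 and 1.56 CPM in Control. The groups did not overlap and ran in the order of CDH11. WT was 2.19-fold above Control (log2 fold change 1.13 ± 0.21, adjusted p = 5.0e-04). IDRmut against Control gave 0.48 ± 0.24 (adjusted p = 0.14), and WT exceeded IDRmut by 0.65 ± 0.19 (adjusted p = 0.02), a call lost without WT replicate 2 (0.14) and without IDRmut replicate 2 (0.11). Other genes share 9.97% of the exon bases of CDH6 in GENCODE release 29, and the strand setting of the counting is not given in the sources used here.

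The classical epithelial cadherins were nearly silent in each group. CDH1 had 1 and 2 counts in WT, 0 and 3 in IDRmut, and 0 and 1 in Control. With at most 3 counts over a group no fold was computed. CDH3, the basal epithelial cadherin, had 1.22 and 0.993 CPM in WT, 1.81 and 0.681 CPM in IDRmut, and 0.709 and 0.215 CPM in Control. The lower IDRmut library lay under the higher Control library. Its log2 fold change against Control was 1.20 ± 0.50 in WT (adjusted p = 0.071) and 1.38 ± 0.50 in IDRmut (adjusted p = 0.045), and between WT and IDRmut −0.18 ± 0.39 (adjusted p = 0.78). The value in IDRmut against Control was 0.53 without IDRmut replicate 1 (adjusted p = 0.51), 0.79 without Control replicate 2 (0.35) and 2.48 without Control replicate 1 (0.032). In WT against Control CDH3 passed the threshold without Control replicate 1 (2.30), without IDRmut replicate 1 (1.19) and without IDRmut replicate 2 (1.20). It also passed with no low-count filter (adjusted p = 0.0074), the replicate number as a block (0.02), only the 2 groups fitted (0.016), and GC content and length offsets (0.042). Without Control replicate 2 its value was 0.61.

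Per length, CDH5 changed its rank among the cadherins of these cells. Levels divided by the length of the merged exons were compared as CPM per kb, because raw CPM favours long transcripts. Merged exons can be longer than the transcript that is expressed, and the expressed forms were not measured. The shares and ratios per length below use the same lengths. In WT the mean was 6.48 CPM per kb for CDH5, below CDH11 (23.4), CDH2 (21.5), CDH4 (16.3) and CDH13 (15.1), and these 5 did not overlap. In IDRmut CDH11 (21.1) and CDH2 (19.9) led, then CDH5 (15.1), CDH13 (14.0) and CDH4 (13.9), and the libraries of CDH4 overlapped those of both CDH5 and CDH13. In Control CDH5 led with 35.0 CPM per kb, above CDH4 (libraries at 19.4 and 20.4), CDH11 (18.7 and 19.3) and CDH2 (18.7 and 18.2). The closest libraries of these 3 neighbours lay nearer to each other than replicates did, and CDH13 came last of the well expressed cadherins (mean 7.10). The lead of CDH5 in Control depends on the lengths used, 6082 exon bases for CDH5 and 13381 for CDH11. In raw CPM CDH11 averaged 254 in Control, above CDH5 at 213. That CDH5 was abundant in Control was also part of the choice.

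As a share of the summed level of the 8 cadherins, CDH5 made up 7.73% and 7.83% in WT, 17.9% and 18.0% in IDRmut, and 35.2% and 35.1% in Control. CDH13 took 18.2% and 18.1% in WT, 16.6% and 16.7% in IDRmut, and 6.85% and 7.41% in Control. The sum of the 8 was 83.3 and 83.2 CPM per kb in WT, 86.0 and 82.7 in IDRmut, and 98.2 and 100.9 in Control, lower with ACK1, while without CDH5 it was 76.9 and 76.6 in WT, 70.6 and 67.8 in IDRmut, and 63.7 and 65.5 in Control, higher with ACK1. The ratio of CDH5 to CDH11 per length was 0.274 and 0.280 in WT, 0.727 and 0.710 in IDRmut, and 1.85 and 1.84 in Control. These shares include CDH5, whose fall was part of the choice, and are descriptions with no test.

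**Figure D3:**
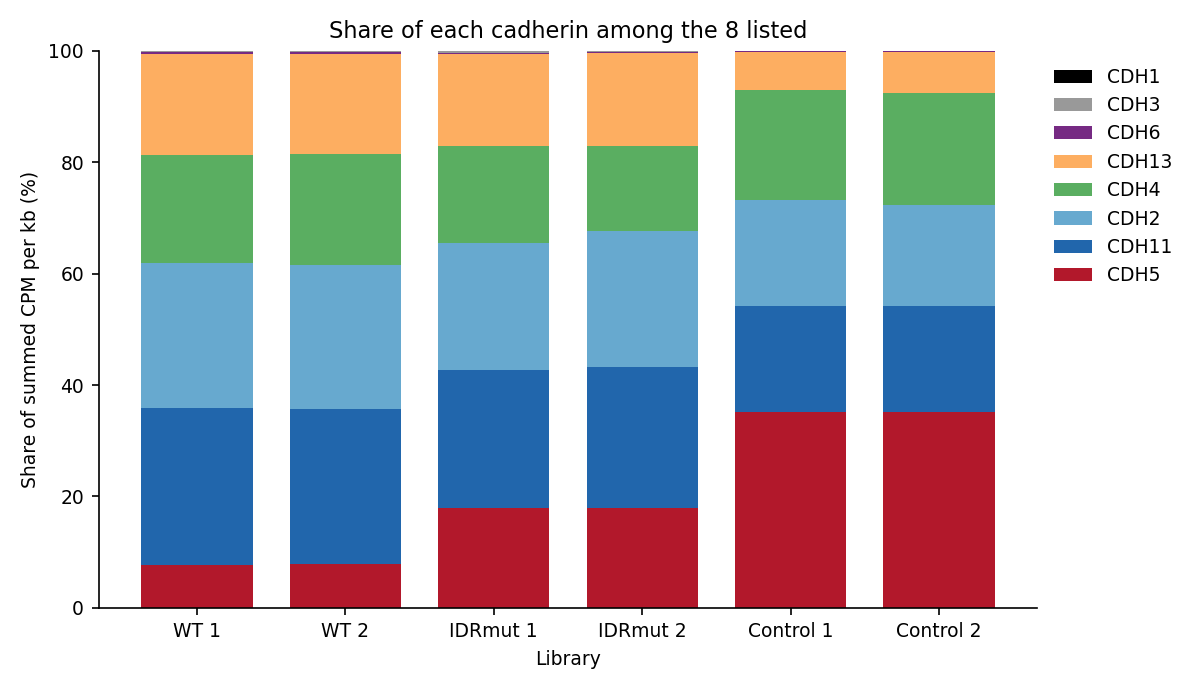
Share of each of the 8 cadherins in their summed CPM per kb of exon, in percent, for each library, stacked to 100. The band of CDH5 covers 35.1% to 35.2% in the Control libraries and 7.73% to 7.83% in the WT libraries, and the band of CDH13 is wider in the WT and IDRmut libraries than in Control.

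β-catenin separated WT from the other groups. CTNNB1 had 833 and 840 CPM in WT, 1027 and 1045 CPM in IDRmut, and 1012 and 1033 CPM in Control. IDRmut and Control overlapped, and both WT libraries lay below them. WT was lower than Control (log2 fold change −0.29 ± 0.03, adjusted p = 2.1e-06) and lower than IDRmut (−0.31 ± 0.03, adjusted p = 1.8e-06), calls that held in the 14 alternatives, and IDRmut against Control gave 0.02 ± 0.03 (adjusted p = 0.7). Per length, the ratio of CTNNB1 to the summed cadherins was 0.838 and 0.847 in WT, 1.00 and 1.06 in IDRmut, and 0.864 and 0.859 in Control. That sum includes CDH13, which has no tail, at 15.1 CPM per kb in WT, 14.0 in IDRmut and 7.10 in Control. It also includes CDH5, whose fall was part of the choice, and the ratio without CDH13 was not computed.

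CTNND1 was far less abundant, with 12.7 and 12.5 CPM in WT, 14.1 and 15.5 CPM in IDRmut, and 13.4 and 11.2 CPM in Control. WT lay inside the range of Control, and both IDRmut libraries lay above the other groups. Its rise in IDRmut against Control (0.27 ± 0.10, adjusted p = 0.049) was lost in 10 of 14 alternatives, with an adjusted p of 0.41 without Control replicate 2, 0.22 without IDRmut replicate 2, 0.058 without WT replicate 1 and 0.059 without WT replicate 2. WT against Control gave 0.03 ± 0.10 (adjusted p = 0.85) and WT against IDRmut −0.24 ± 0.09 (adjusted p = 0.071). The latter passed with GC content and length offsets (adjusted p = 0.032) and without IDRmut replicate 1. In GENCODE release 29 the read-through gene TMX2-CTNND1, whose ID is not among those of the count table, shares 3.65% of the exon bases of CTNND1. AP001931.1, on the same strand and with an ID in the count table, shares 3.28% and had 1 to 9 counts per library. The RefSeq annotation places TMX2-CTNND1 at 57712523 to 57819180 on chromosome 11, where CTNND1 spans 57753243 to 57819546. The annotation used for the counting is not given. Reads of CTNND1 left out as ambiguous could lower its level, and their effect was not tested.

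Among 30 further genes of the cadherin superfamily, from type II cadherins to calsyntenins, flamingo, FAT and cadherin-related genes, 18 passed the filter and more fell than rose. Against Control 4 rose and 9 fell in WT (median log2 fold change −0.41) and 5 rose and 7 fell in IDRmut (−0.15), and in WT against IDRmut 1 rose and 6 fell (−0.09). The called share was 72.2% in WT against Control, where 35.0% of all genes were called, 66.7% in IDRmut against Control (31.6% of all genes) and 38.9% in WT against IDRmut (26.5%). CELSR2, a flamingo cadherin of planar polarity, fell in WT with 191 CPM against 370 CPM in Control (log2 fold change −0.95 ± 0.04, adjusted p = 4.6e-11), and was lower in WT than in IDRmut, which had 286 CPM (−0.58 ± 0.05, adjusted p = 5.5e-08). CDH10, a type II cadherin of the brain, rose 4.33-fold in WT against Control, with 5.77 CPM in WT and 1.33 CPM in Control (adjusted p = 5.9e-08), and FAT3 rose by 1.14 ± 0.10 (adjusted p = 6.9e-08). FAT2, a FAT family cadherin of squamous epithelia, had 3.46 CPM in WT, 16.3 CPM in IDRmut and 7.90 CPM in Control. It fell in WT against Control (log2 fold change −1.21 ± 0.13, adjusted p = 1.1e-06), rose in IDRmut against Control (1.04 ± 0.10, adjusted p = 5.2e-07) and was lower in WT than in IDRmut (−2.26 ± 0.11, adjusted p = 2.1e-10). FAT4, a receptor in planar polarity, fell in IDRmut against Control (−0.59 ± 0.05), CLSTN3, a calsyntenin, rose there by 0.93 ± 0.10, and CDHR1 was lower in WT than in IDRmut (−2.02 ± 0.21). In WT against Control FAT4 was also called lower (63 CPM in WT, 92 CPM in Control) and CLSTN3 also called higher. Without WT replicate 2 the counts of genes that rose and that fell were 2 and 9 in WT against Control and 0 and 5 in WT against IDRmut, without IDRmut replicate 2 they were 5 and 4 in IDRmut against Control, and without IDRmut replicate 1 they were 2 and 6 in WT against IDRmut.

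The adherens junction plaque, the layer of catenins, nectins and actin linkers under the membrane, had 21 of 22 genes tested. Of these, 6 rose and 6 fell in WT against Control (median log2 fold change −0.04), in IDRmut against Control 5 rose and 9 fell (−0.09), and in WT against IDRmut 11 rose and 4 fell (0.12). These calls make up 57.1% of the list in WT against Control, 66.7% in IDRmut against Control and 71.4% in WT against IDRmut, beside 35.0%, 31.6% and 26.5% of all genes. NECTIN1, an adhesion receptor beside cadherins, had the same order as CDH5, with 192 CPM in WT, 258 CPM in IDRmut and 349 CPM in Control (−0.86 ± 0.04 in WT and −0.44 ± 0.04 in IDRmut against Control, −0.43 ± 0.04 in WT against IDRmut, adjusted p at most 7.7e-07). KIFC3, a motor that serves epithelial junctions, ran the other way, with 48.5 CPM in WT, 27.9 CPM in IDRmut and 16.6 CPM in Control (1.55 ± 0.08 in WT against Control, adjusted p = 2.1e-10, and 0.81 ± 0.07 against IDRmut, adjusted p = 4.3e-07). PLEKHA7, which ties p120-catenin to microtubules, rose in WT against Control by 0.96 ± 0.06 (adjusted p = 2.7e-09). AJUBA, a LIM protein of junctions, fell in IDRmut against Control (−0.55 ± 0.04), as did JUP, the plakoglobin gene (−0.51 ± 0.05), while LIMA1, an actin linker, was lower in WT than in IDRmut (−0.50 ± 0.04). AJUBA was also called lower in WT (160 CPM) than in Control (217 CPM). Without WT replicate 2 the counts in WT against IDRmut were 7 and 4, and without IDRmut replicate 1 those in WT against Control were 6 and 10.

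Desmosomes, the junctions that anchor keratin filaments, had 6 of 12 listed genes tested, and those 6 were mostly higher with ACK1. Against Control 5 rose and 0 fell in WT (median log2 fold change 0.40), and 6 rose and 0 fell in IDRmut (0.53), and in WT against IDRmut 3 rose and 2 fell (−0.05). Beside the 35.0% of all genes called in WT against Control, 31.6% in IDRmut against Control and 26.5% in WT against IDRmut stand 83.3%, 100% and 83.3% of these 6 genes. DSP, the desmoplakin gene, had 60.0 CPM in WT, 82.9 CPM in IDRmut and 51.0 CPM in Control, higher in IDRmut than in Control by 0.70 ± 0.05 (adjusted p = 6.9e-09) and lower in WT than in IDRmut (−0.47 ± 0.04, adjusted p = 7.0e-07). The plaque gene PKP2 rose by 0.49 ± 0.05 and PKP3 by 1.75 ± 0.23 in WT against Control, and the desmosomal cadherins DSG2 by 0.30 ± 0.05 in WT, DSG3 by 0.36 ± 0.07 in IDRmut against Control and DSC2 to 2.00 CPM in IDRmut, against 0.705 CPM in Control (adjusted p = 6.2e-04). DSC1, DSC3, DSG1, DSG4 and PERP had at most 3 counts in every library. In WT against IDRmut the counts without WT replicate 2 were 1 and 1, and with DESeq2 those in IDRmut against Control were 3 and 0.

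The list of proteases, endocytic adaptors and phosphatases that cut, internalise or dephosphorylate cadherins had 23 of 25 genes tested. There 6 rose and 6 fell in WT against Control (median log2 fold change 0.05), in IDRmut against Control 7 rose and 3 fell (0.06), and in WT against IDRmut 4 rose and 7 fell (−0.06). The test called 52.2% of the list in WT against Control, against 35.0% of all genes, in IDRmut against Control 43.5% against 31.6%, and in WT against IDRmut 47.8% against 26.5%. PTPRB encodes VE-PTP, the receptor phosphatase that binds VE-cadherin in endothelium, and it had the same order as CDH5 in narrower steps. Its libraries held 107 and 111 CPM in WT, 155 and 148 CPM in IDRmut, and 199 and 190 CPM in Control, with no overlap between groups. Against Control PTPRB fell in WT (log2 fold change −0.84 ± 0.04, adjusted p = 1.1e-10) and in IDRmut (−0.36 ± 0.04, adjusted p = 4.9e-06), and it was lower in WT than in IDRmut (−0.48 ± 0.04, adjusted p = 3.1e-07). PTPRJ, another receptor phosphatase, rose in WT by 0.52 ± 0.04 against Control (adjusted p = 4.9e-08) and by 0.31 ± 0.04 against IDRmut (adjusted p = 2.4e-05). AP1M2, an epithelial sorting adaptor, rose in WT against Control by 2.77 ± 0.27 at a low level (3.54 CPM in WT, 0.517 CPM in Control), and the proteases MMP14 and MMP7 rose in IDRmut against Control by 0.73 ± 0.09 and 3.54 ± 0.43, MMP7 at 1.88 CPM in IDRmut and 0.155 CPM in Control. Both proteases were also called higher in WT than in Control, with MMP14 at 21.5 CPM and MMP7 at 0.956 CPM in WT. In WT against Control the counts were 6 and 3 when either Control library was left out and 9 and 3 with upper-quartile scaling. In WT against IDRmut they were 3 and 1 without WT replicate 1 and 2 and 4 without WT replicate 2, and in IDRmut against Control 8 and 5 without IDRmut replicate 1.

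**Figure D4:**
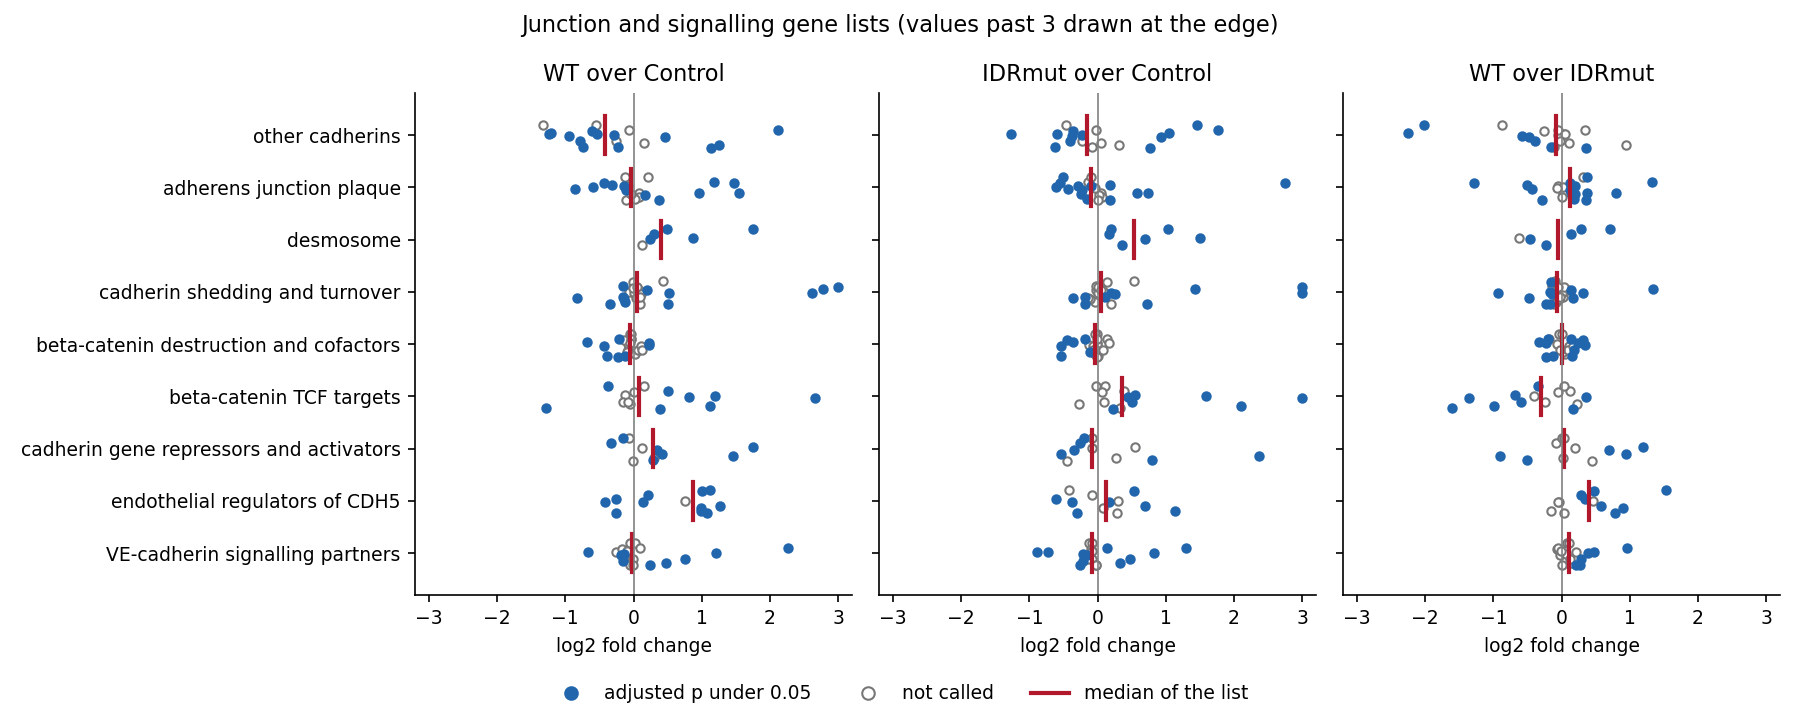
Log2 fold change of every tested gene in 9 lists around cadherins, in WT over Control, IDRmut over Control and WT over IDRmut. Points are genes, filled where the adjusted p was under 0.05, red bars are list medians and values past 3 are drawn at the edge. The desmosome medians lie at 0.40 and 0.53 against Control, and that of the endothelial regulators at 0.87 in WT over Control.

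Genes that degrade β-catenin or serve as its nuclear cofactors were called against Control about as often as all genes. They split without a common direction between WT and IDRmut. Of 22 listed and tested, 2 rose and 6 fell in WT against Control (median log2 fold change −0.05), 6 fell and 0 rose in IDRmut against Control (−0.04), and 6 rose and 5 fell in WT against IDRmut (0.01). The share called was near that of all genes in WT against Control (36.4% of the list, 35.0% of all genes) and in IDRmut against Control (27.3% and 31.6%), and in WT against IDRmut it was 50.0% of the list and 26.5% of all genes. As lower, 17.6% of all genes were called in WT against Control and 15.9% in IDRmut against Control. CTNNBIP1, an inhibitor that blocks the binding of β-catenin to TCF factors, fell in WT, with 31.9 CPM against 51.6 CPM in Control (−0.69 ± 0.06, adjusted p = 2.0e-07), and was lower in WT than in IDRmut (−0.33 ± 0.06, adjusted p = 0.0011). TCF7L2, the TCF factor of epithelia, fell in WT (−0.39 ± 0.05) and IDRmut (−0.54 ± 0.05) against Control, and APC, the scaffold of the destruction complex, rose in WT by 0.23 ± 0.05 against Control and 0.23 ± 0.04 against IDRmut. BCL9L, a co-activator (−0.45 ± 0.05), and TCF7L1, a repressor (−0.54 ± 0.09), fell in IDRmut against Control, and BCL9L was higher in WT than in IDRmut by 0.32 ± 0.05. TCF7L1 was also called lower in WT (13.9 CPM) than in Control (18.6 CPM). In WT against IDRmut the counts were 2 and 2 without WT replicate 2, 3 and 3 without WT replicate 1, and 5 and 3 when either Control library was left out. In WT against Control they were 4 and 8 without IDRmut replicate 2 and 1 and 5 without WT replicate 2 or Control replicate 2, and in IDRmut against Control 2 and 5 without IDRmut replicate 2.

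Genes known as targets of β-catenin and TCF factors had 14 of 20 tested. The 14 split into 6 that rose and 2 that fell in WT against Control (median log2 fold change 0.08), in IDRmut against Control 7 rose and 0 fell (0.35), and in WT against IDRmut 2 rose and 6 fell (−0.30). Called genes formed 57.1% of the list in WT against Control (35.0% of all genes), 50.0% in IDRmut against Control (31.6%) and 57.1% in WT against IDRmut (26.5%). LGR5, a stem cell receptor of the Wnt pathway, had 9.31 CPM in WT, 18.1 CPM in IDRmut and 4.20 CPM in Control. It rose by 1.12 ± 0.14 in WT (adjusted p = 6.0e-06) and 2.10 ± 0.13 in IDRmut (adjusted p = 1.5e-09) against Control. LGR5 was lower in WT than in IDRmut (−0.99 ± 0.10, adjusted p = 1.4e-06). MYC rose by 0.51 ± 0.05 in IDRmut against Control (adjusted p = 2.4e-07) and was lower in WT than in IDRmut (−0.60 ± 0.05, adjusted p = 4.1e-08). DKK1, a secreted Wnt antagonist, rose in WT against Control, with 679 CPM in WT and 516 CPM in Control (0.39 ± 0.04, adjusted p = 2.4e-07), and BMP4 by 0.81 ± 0.08. TNFRSF19 was 2.60 CPM in IDRmut and 0.154 CPM in Control, and APCDD1, a Wnt inhibitor, 1.94 CPM in WT and 6.04 CPM in IDRmut (−1.60 ± 0.16, adjusted p = 7.4e-07). NKD2, SP5, DKK4, WIF1, ASCL2 and FGF20 had at most 3 counts in every library. In WT against Control the counts without WT replicate 2 were 5 and 1.

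Transcription factors known to repress or activate cadherin genes in epithelia had 11 of 21 tested. Their counts were 5 higher and 2 lower in WT against Control (median log2 fold change 0.28), in IDRmut against Control 2 rose and 4 fell (−0.08), and in WT against IDRmut 3 rose and 2 fell (0.04). That is 63.6% of the list in WT against Control, 54.5% in IDRmut against Control and 45.5% in WT against IDRmut, beside 35.0%, 31.6% and 26.5% of all genes. SNAI2, a repressor of CDH1, rose in WT against Control, with 3.50 CPM in WT and 1.04 CPM in Control (1.75 ± 0.22, adjusted p = 8.2e-06). ZEB2, another repressor, had 20.6 CPM in WT, 10.7 CPM in IDRmut and 15.5 CPM in Control, lower in IDRmut than in Control (−0.53 ± 0.09) and higher in WT than in IDRmut by 0.95 ± 0.08 (adjusted p = 2.3e-07). The epithelial ETS factors EHF and ELF3 rose most in IDRmut, by 0.79 ± 0.04 (adjusted p = 1.7e-10) and 2.36 ± 0.20 (adjusted p = 9.6e-08) against Control, and also in WT, by 0.28 ± 0.04 and 1.46 ± 0.22. EHF was lower in WT than in IDRmut (−0.51 ± 0.04), and FOXA1 was higher by 0.69 ± 0.09. SNAI1, TWIST2, KLF8, GRHL2, OVOL1 and FOXA2 had at most 3 counts in every library. The number that fell in WT against Control was 1 when any single WT or Control library was left out, and in IDRmut against Control the counts without Control replicate 1 were 2 and 2.

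Transcription factors known to control CDH5 in endothelial cells rose more often than they fell in WT. The list does not separate factors that raise CDH5 from those that lower it. The part of these factors in the level of CDH5 was not tested. Of 12 tested among 20 listed, 8 rose and 3 fell in WT against Control (median log2 fold change 0.87), in IDRmut against Control 4 rose and 3 fell (0.13), and 7 rose and 0 fell in WT against IDRmut (0.40). As higher, 17.4% of all genes were called in WT against Control, 15.6% in IDRmut against Control and 14.2% in WT against IDRmut. In total 91.7% of the list was called in WT against Control (35.0% of all genes), 58.3% in IDRmut against Control (31.6%) and 58.3% in WT against IDRmut (26.5%). ETS2 had 37.4 CPM in WT, 25.1 CPM in IDRmut and 15.5 CPM in Control, a rise of 1.27 ± 0.07 in WT (adjusted p = 1.9e-10) and 0.69 ± 0.07 in IDRmut (adjusted p = 1.4e-06) against Control. GATA2 had 10.3 CPM in WT, 3.60 CPM in IDRmut and 4.76 CPM in Control, higher in WT than in Control by 1.13 ± 0.13 and than in IDRmut by 1.54 ± 0.14 (adjusted p = 2.7e-07). ELF1 rose by 1.01 ± 0.08 in WT against Control, and ETS1, the most abundant of these named, had 141 CPM in WT and 115.5 CPM in IDRmut (0.29 ± 0.04, adjusted p = 6.9e-05). In IDRmut against Control the values of FLI1 (−0.60 ± 0.10) and NR2F2 (−0.30 ± 0.05) fell. Both were also called lower in WT than in Control. FLI1 had 11.6 CPM in WT and 13.8 CPM in Control, and NR2F2 90.0 CPM in WT and 107.6 CPM in Control. The WT call of FLI1 was lost in 9 of 14 alternatives. Among these were DESeq2, upper-quartile scaling, the replicate block and each fit without one WT or Control library. ERG, TAL1, LYL1, SOX17, HHEX and TCF15, among them core endothelial factors, had at most 3 counts in every library. Without WT replicate 2 the counts in WT against Control were 6 and 1.

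Signalling partners of VE-cadherin, such as receptor kinases, Src family kinases and small GTPases, had 19 of 25 genes tested. Of the 19, 5 rose and 4 fell in WT against Control (median log2 fold change −0.03), in IDRmut against Control 5 rose and 6 fell (−0.09), and in WT against IDRmut 6 rose and 0 fell (0.11). The calls cover 47.4% of the list in WT against Control (35.0% of all genes), 57.9% in IDRmut against Control (31.6%) and 31.6% in WT against IDRmut (26.5%). TEK, the angiopoietin receptor, rose in WT, with 5.09 CPM in WT, 2.64 CPM in IDRmut and 1.07 CPM in Control (2.27 ± 0.20 against Control, adjusted p = 9.2e-08, and 0.97 ± 0.16 against IDRmut, adjusted p = 1.9e-04). ARHGEF2, an activator of RhoA, rose by 0.76 ± 0.07 in WT and 0.47 ± 0.07 in IDRmut against Control, and the kinase SRC by 1.21 ± 0.16 in WT against Control. RAC1, with 390 CPM in IDRmut and 450 CPM in Control, fell in IDRmut against Control (−0.21 ± 0.04), as did VAV2, its activator (−0.26 ± 0.05). RAC1 was also called lower in WT (404 CPM) than in Control. The kinase PAK1 was higher in WT than in IDRmut by 0.27 ± 0.06, and VAV2 by 0.21 ± 0.04, a call lost without WT replicate 2. In WT against Control the counts were 5 and 1 without Control replicate 1, 4 and 1 without Control replicate 2, and 5 and 2 when either WT library was left out, and in WT against IDRmut 3 and 0 without WT replicate 2 and 5 and 1 without IDRmut replicate 1.

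Of the 3 nearest tested protein-coding genes on each side of CDH5 on chromosome 16, only CDH8, another cadherin gene, was called lower than Control in both ACK1 groups. BEAN1 begins 22.5 kb after CDH5 and had 1.61 and 1.05 CPM in WT, 2.65 and 2.23 CPM in IDRmut, and 1.98 and 1.88 CPM in Control. It was lower in WT than in IDRmut (−0.93 ± 0.24, adjusted p = 0.007), a call lost without WT replicate 2 and with DESeq2. BEAN1 did not pass in WT against Control (−0.60 ± 0.25, adjusted p = 0.077) or IDRmut against Control (0.33 ± 0.23, adjusted p = 0.31). TK2, the mitochondrial thymidine kinase gene 103.2 kb away, fell in WT against Control (−0.23 ± 0.06, adjusted p = 0.011). That call was lost without Control replicate 1, without WT replicate 2 and with DESeq2. TK2 was also lower in WT than in IDRmut (−0.20 ± 0.06, adjusted p = 0.03), a call lost in 6 of 14 alternatives. Among these were DESeq2 and the fits without WT replicate 1, WT replicate 2 or IDRmut replicate 1. In IDRmut against Control TK2 gave −0.03 ± 0.06 (adjusted p = 0.76). CKLF, 147.8 kb away, passed in none of the 3 comparisons.

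On the other side the next tested gene was CDH11, 1240.5 kb away, which rose. CDH8, a type II cadherin 4329.6 kb away, had 0.587 and 0.613 CPM in WT, 0.735 and 0.454 CPM in IDRmut, and 1.42 and 1.45 CPM in Control. CDH8 fell in WT (−1.24 ± 0.30, adjusted p = 0.0041) and in IDRmut (−1.27 ± 0.32, adjusted p = 0.0061) against Control, the call in IDRmut being lost without IDRmut replicate 2 and both with DESeq2, and WT against IDRmut gave 0.03 ± 0.36 (adjusted p = 0.96). GOT2, 7632.3 kb away, fell in IDRmut against Control (−0.13 ± 0.04, adjusted p = 0.0081), a call lost when either Control library was left out, and gave −0.04 ± 0.03 in WT against Control (adjusted p = 0.46) and 0.10 ± 0.03 in WT against IDRmut (adjusted p = 0.05).

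The profiles most like that of CDH5 were ranked by Euclidean distance between log2 CPM values centred on their mean over the 6 libraries, among 10905 genes that averaged 5 CPM or more. The 5 nearest were FBLN2 (distance 0.49), EDNRA (0.52), the unnamed gene ENSG00000280219 (0.56), PADI3 (0.71) and THSD7A (0.75). FBLN2, which encodes the matrix protein fibulin-2, averaged 6.32 CPM in WT, 16.4 CPM in IDRmut and 27.5 CPM in Control. EDNRA, the endothelin receptor type A gene, averaged 12.6 CPM in WT, 31.6 CPM in IDRmut and 52.5 CPM in Control. PADI3, a peptidylarginine deiminase gene of skin, averaged 2.92 CPM in WT, 4.40 CPM in IDRmut and 14.4 CPM in Control. These genes were picked for their likeness, so their differences carry no test.

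**Figure D5:**
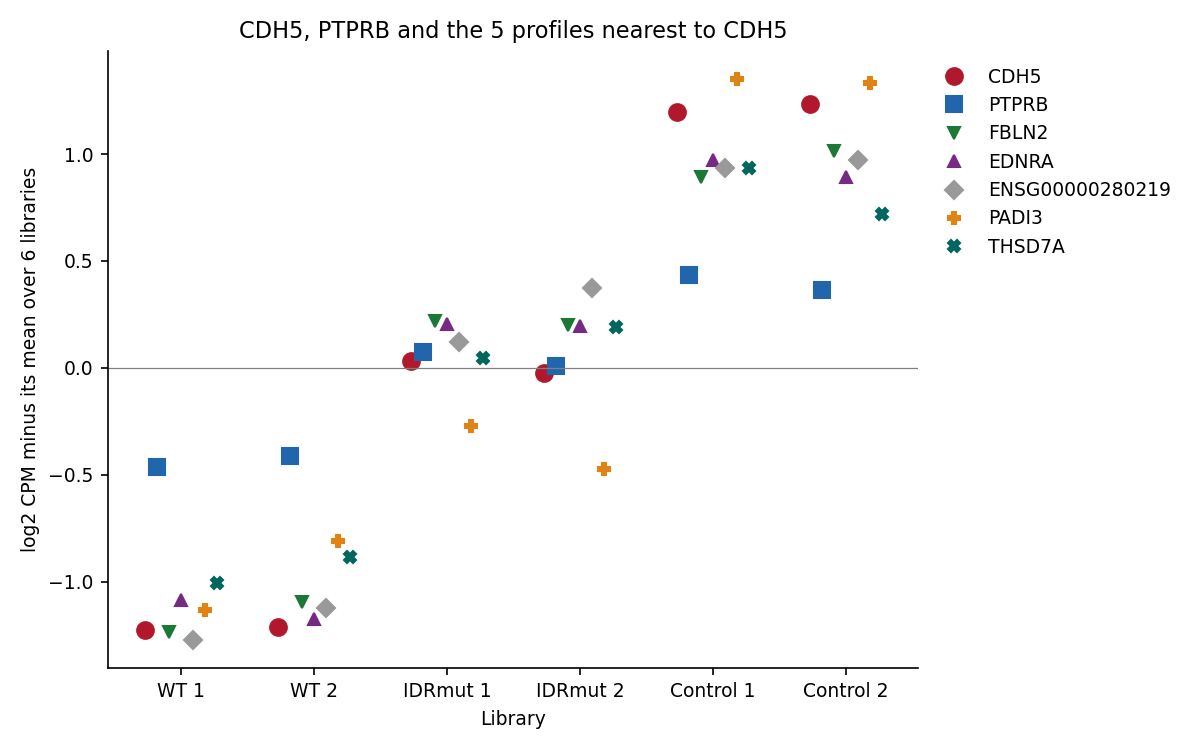
Log2 CPM minus its mean over the 6 libraries for CDH5, PTPRB and the 5 genes nearest to CDH5, by library. Points of CDH5 lie near −1.2 in WT, near 0 in IDRmut and near 1.2 in Control, and PTPRB shows the same order within a narrower range.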

How the data were processed

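The authors deposited one table of raw read counts per gene ID for 6 libraries, made with HISAT2 2.2.1, SAMtools 1.14 and featureCounts 2.0.1 on GRCh38, per the submitters' processing notes. RNA was selected with poly-T beads and primed with random hexamers, per the labels' protocols. Neither the annotation release nor the strand and multi-match settings of the counting are given in the sources used here. Overlapping genes, and the ACK1 transgene and endogenous TNK2, could not be told apart by their reads. PCR reads carry no molecular identifiers, so counting error is a lower limit.

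Of 61487 IDs, 61369 were named from a table of current symbols and 105 from GENCODE release 29, whose GRCh38 positions are printed. Genes passing edgeR's filterByExpr (minimum count 10, minimum total 15) numbered 16591 and held 99.8% to 99.9% of the deposited counts in each library. Counts were TMM-scaled, and all 6 libraries entered one fit of group means in edgeR 4.0.16 (R 4.3.3, 3 residual and 13.5 prior degrees of freedom). The 3 contrasts were tested with the quasi-likelihood test, Benjamini-Hochberg adjusted over all genes tested, and called at an adjusted p under 0.05. Values after ± are SE for log2 fold changes (n = 2 per group), and intervals are 95%. The procedure was tested on simulated data. Replicates differed by more than counting error (chi-square per gene 1.55 in WT, 3.73 in IDRmut and 1.70 in Control), so each library counted as a sample.

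The members, gene lists and alternatives were chosen with earlier results of these data known. The genes named are all members, TNK2, up to 3 called genes with the smallest adjusted p per list and contrast, the 3 nearest tested protein-coding genes on each side of CDH5, the 5 nearest profiles, and markers or list genes with near-zero counts. Alternatives covered scaling, filtering, depth, a replicate block, pairwise fits, each library left out, DESeq2 1.42.0, and GC content and length offsets added after seeing the data.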

Additional observations from a re-analysis of the deposited data

How the results depend on the processing

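Over the 14 alternatives the difference of CDH5 between WT and IDRmut kept its direction and its call (−1.25 to −1.20), and its log2 fold change against Control ranged from −2.50 to −2.40 in WT and from −1.28 to −1.18 in IDRmut. Of the other values of members under the alternatives, 318 kept their direction and, where tested, their side of the threshold. CDH5 against Control, which had no test, counted among these where it moved by less than the spread between replicates. Beyond these, 17 gained a call, 20 lost one, 3 of CDH5 against Control moved by more than that spread, and 5 with no call changed sign (CDH3 in WT against IDRmut, CTNND1 in WT against Control and CTNNB1 in IDRmut against Control). No called value changed sign. Under DESeq2 3 member calls were lost, those of CDH3 in IDRmut against Control (adjusted p = 0.15), CDH6 in WT against IDRmut (0.27) and CTNND1 in IDRmut against Control (0.29). The number of genes called was 5806 in WT against Control, 5236 in IDRmut against Control and 4396 in WT against IDRmut, and with DESeq2 it was 3480, 3116 and 2351, and the cause was not tested. With one library left out, which leaves fewer samples, it ranged from 3976 to 7028 in WT against Control, from 3451 (without Control replicate 1) to 5521 in IDRmut against Control and from 2590 (without WT replicate 2) to 4761 in WT against IDRmut. With GC content and length offsets more listed genes were called lower than Control: in WT 11 of 21 plaque genes, 10 of 22 β-catenin regulators, 4 of 14 TCF targets and 8 of 19 VE-cadherin partners, and in IDRmut 6 of 23 shedding genes, 9 of 22 β-catenin regulators, 5 of 12 endothelial regulators and 11 of 19 partners. A group left with 1 library was assumed to vary like the others.

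With the replicate number as a block (replicate block) 5440, 4839 and 3965 genes were called in these 3 comparisons, CDH3 passed in WT against Control (adjusted p = 0.02) and CTNND1 did not in IDRmut against Control (0.067). The labels do not say what the numbers share, and deviations of same-numbered libraries correlated by −0.02 between WT and Control, −0.05 between IDRmut and Control and −0.13 between WT and IDRmut, so the numbers were not taken as pairs. Depth limits CDH1, CDH3 and CDH6.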
